A study of Mus musculus with 12 samples.

Results

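Cells expressing the ligase-dead mutant CBL-70Z were compared with empty vector (EV) cells by RNA sequencing, across all genes. The comparison took 6 of the 12 libraries of the study, namely the 3 labelled CBL-70Z and the 3 labelled EV. The table of this pair held 39179 gene IDs, of which 15000 reached a mean of at least 10 normalized counts in one of the lines and were tested. Both lines were NIH-3T3, an immortalized mouse embryo fibroblast line of the NIH/Swiss background, between passages 13 and 17 and grown as monolayers in medium with bovine serum, glutamine and antibiotics. By the labels the lines were stably transfected, one with the empty vector and the other with CBL-70Z, and the methods describe viral infection of NIH-3T3 cells with puromycin selection. Lines expressing WT-CBL or CBL-Y371S made up the rest of the study and are used only where a gene of the CBL-70Z line is set beside them. The study sequenced these lines in search of signaling set off by CBL mutants bound to CIN85. Each construct was represented by 1 line, so construct and line cannot be told apart, and whether a line was a pool or a clone is not stated. The RNA sequencing is described as done in triplicate, without saying whether the 3 libraries of a line came from separate cultures, and the p-values therefore describe the spread of these libraries alone, which may be technical.

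CBL is an E3 ubiquitin ligase with a RING domain that binds activated receptor tyrosine kinases such as EGFR and marks them for endocytosis and lysosomal breakdown. It is also an adaptor whose proline-rich tail binds SH3 proteins, among them CIN85, the product of Sh3kbp1. The 70Z deletion removes part of the linker and RING region, which abolishes ligase activity and leaves the adaptor regions in place. Receptor signaling through RAS and ERK induces transcripts of ETS factors and of its own inhibitors, the Sprouty proteins and the DUSP phosphatases, and these transcripts are widely read as ERK output. In fibroblasts the same growth factor pathways act beside serum response factor (SRF), which drives actin and contractile genes through the CArG box, and beside TGF-beta, which drives matrix genes.

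Reads counted in genes ranged from 24763982 to 29684881 in EV and from 22454220 to 23675857 in CBL-70Z, and the first principal component, with 48.63% of the variance, separated the lines. All 15 fibroblast markers were detected. Summed blood, epithelial and endothelial markers were each at 258.8 normalized counts or less in every library, beside at least 910169.1 for the fibroblast markers. Skeletal muscle markers reached 277.2, with Myod1 and Myf5 at 0. Adipocyte markers were at 564.8 to 583.7 in EV and 406.6 to 444.4 in CBL-70Z, with 3 of 4 tested markers lower and Lep at 0, and neural and glial markers at 489.5 to 512.7 and 606.5 to 674.8, with 2 of 5 higher, 1 lower and Syt1 and Olig2 at 0. The part of these markers in the results below was not tested. Log2 fold changes followed exon length weakly, with a Spearman rho of -0.254 across 11157 abundant genes, which share the 6 libraries and are not independent. Normalized counts are not corrected for length, so levels are compared between lines and not between genes. The library kit did not mark strand, so reads cannot be told from those of an opposite-strand gene for genes that overlap one, here Ccnd1, Ccnd2, Ccne2, Cdc42ep3, Cdk6, Cdkn1a, Cp, Ctgf, Ddit3, Dusp5, Ereg, Fbn1, Fosl1, Hmga1, Id4, Igf2, Junb, Nrg1, Nrg4, Phlda1, Plxna4, Spry1, Tagln, Tenm4, Thbs1, Thbs3 and Vcl.

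Many genes differed between the lines, nearly all by a small amount. At an adjusted p below 0.05, 4907 genes were called, 32.7% of those tested, with 2385 higher in CBL-70Z (15.9%) and 2522 lower (16.8%). The median absolute log2 fold change of a called gene was 0.18, and 3845 of the calls (78.4%) were below 1.25-fold. A change of 2-fold or more was found in 142 genes (0.947% of those tested), 67 higher and 75 lower. The libraries of the lines did not overlap at 42.5% of tested genes, and the median log2 fold change of all tested genes was 0.003. With differences this small on an average gene, the gene lists below are described by how many members were called. Every such count is to be read against the shares of 15.9% higher and 16.8% lower, which are not repeated at each list. A call also depends on abundance, with an SE of 0.02 for the abundant Thbs2 and 0.26 for the scarce Areg. The shares are not matched for abundance, and most lists had more than 32.7% of members called. A list above the share is therefore not by that alone a changed list.

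The targeted gene, Cbl, was at 734, 695 and 632 normalized counts in EV and 1716, 1835 and 1628 in CBL-70Z (chromosome 9, 44142976 to 44234049 of GRCm38). The 3 CBL-70Z libraries were all above the 3 EV libraries, a log2 fold change of 1.33 ± 0.05 (SE, adjusted p = 3.1e-22). In the fit of all 12 libraries Cbl stood at 0.23 against EV in WT-CBL and at 1.15 in CBL-Y371S, and the excess of CBL-70Z over CBL-Y371S was 0.18 ± 0.08 (SE, adjusted p = 0.082). Its level therefore sets CBL-70Z apart from EV, while the difference from CBL-Y371S was not called, which is not evidence that the mutants are equal. Among 7 mouse pseudogenes similar in sequence to Cbl, 3 had a read in EV or CBL-70Z and 2 had many. Gm15272, whose 233 bases match the Cbl transcript at 95.8% over 237 aligned positions (chromosome 10, 24514279 to 24514511), had 0, 0 and 0 reads in EV and 121, 118 and 115 in CBL-70Z. Against a floor of 3 counts over the EV group, this was at least 133.3-fold higher. Gm6695 (chromosome 6, 58091076 to 58092247; identity 94.2% over 968 positions) had 14, 8 and 14 reads in EV and 170, 198 and 146 in CBL-70Z, a ratio of 16.13 with a 95% counting interval of 11.5 to 23.29. In the other CBL lines Gm15272 had 60 to 73 reads in WT-CBL and 155 to 208 in CBL-Y371S. Which transcript these reads came from was not tested, and the Cbl count does not separate the introduced CBL from the cells' own.

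Among the partners of CBL the differences were small. In the list of CBL family members and SH3 or SH2 adaptors, 3 of 28 tested members were called higher and 10 lower, with a median log2 fold change of -0.02. The 10 lower were 5 with the length and GC trend removed and 6 in the fit of all 12 libraries. Sh3kbp1, the gene of CIN85, was at 4384, 4287 and 4398 normalized counts in EV and 5394, 5575 and 5207 in CBL-70Z. All 3 CBL-70Z libraries exceeded the EV libraries, by 0.31 ± 0.03 (SE, adjusted p = 8.3e-12). Cblb, the closest relative of CBL, was at 996, 985 and 1002 normalized counts in EV and 1148, 1077 and 1109 in CBL-70Z, again with no overlap, and rose by 0.16 ± 0.04 (SE, adjusted p = 0.0015). The adaptor Grb2, which links receptors to RAS, was not called (0.02). Itsn1, an endocytic scaffold that also activates CDC42, fell by 0.19, and the CBL-binding ARF regulator Asap1 by 0.20, both on the log2 scale. Clathrin endocytosis and endosomal sorting genes stood near the background share in both directions: 9 of 45 were higher and 10 lower, none by more than 0.17 in log2, the lower ones including Cltc, the clathrin heavy chain (-0.16).

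CDC42, a small GTPase that controls filopodia and polarity, is switched on by exchange factors. Fgd4, a CDC42 exchange factor also known as frabin, was at 15.2, 9.28 and 13.6 normalized counts in EV and 185, 239.8 and 181 in CBL-70Z (chromosome 16, 16416917 to 16600549 of GRCm38). The lowest CBL-70Z library was far above the highest EV library, with a log2 fold change of 3.90 ± 0.18 (SE, adjusted p = 7.1e-19). Its relatives did not move with it as a group, since Fgd3 fell (-0.63 ± 0.07, SE, adjusted p = 1.8e-08) and Fgd1 was not called (-0.03), while the rise of Fgd6 (0.29) lost its call without EV replicate 3 or without CBL-70Z replicate 2, each at 0.21. Dock8, an exchange factor of hematopoietic and migrating cells, rose by 1.25. Of the effectors that bind active CDC42, the formin Fmnl2 (0.36) and the kinase Pak1 (0.31) rose, whereas Pak3 (-0.29) and Cdc42ep3, a septin regulator (-0.53), fell. Over CDC42 and its effectors, 12 of 33 were higher and 8 lower, with a median of 0.00. Cdc42 itself was at 6944, 6739 and 6993 normalized counts in EV and 7224, 7192 and 7173 in CBL-70Z, a log2 fold change of 0.06 ± 0.02 (SE, adjusted p = 0.03) that was lost without either of EV replicates 1 and 2, at 0.07 and 0.05, and without either of CBL-70Z replicates 1 and 2, both at 0.06. The same call was lost with DESeq2, with no filter and with a replicate block (each 0.06), in the fit of all 12 libraries (0.07) and with the length and GC trend removed (0.04). Erf, an ETS repressor inactivated by ERK, was not called (0.03 ± 0.03, SE, adjusted p = 0.54). Egr1, an immediate early zinc finger gene, was at 1489, 1315 and 1373 normalized counts in EV and 1353, 1271 and 1248 in CBL-70Z. Its libraries overlapped, and the fold change of -0.11 ± 0.04 (SE, adjusted p = 0.039) was lost without EV replicate 1 (-0.06) or 3 (-0.12) and without CBL-70Z replicate 2 (-0.10) or 3 (-0.08). It was lost too with DESeq2, with no filter and in the fit of all 12 libraries (each -0.11), and with the length and GC trend removed (-0.08).

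EGF-family ligands, the proteins that activate EGFR and its relatives, were mostly higher. Btc, the ligand betacellulin, was at 16.2, 18.6 and 14.6 normalized counts in EV and 86.6, 108 and 92.98 in CBL-70Z (chromosome 5, 91357261 to 91402994 of GRCm38). Every CBL-70Z library was several times above every EV library, a log2 fold change of 2.47 ± 0.18 (SE, adjusted p = 3.8e-13). Areg, amphiregulin, was at 11.1, 16.9 and 11.7 normalized counts in EV and 27.8, 28.3 and 22.2 in CBL-70Z, also without overlap, with a change of 0.95 ± 0.26 (SE, adjusted p = 0.0051). Ereg, epiregulin, was at 678, 585 and 649 normalized counts in EV and 932, 966 and 899 in CBL-70Z, and Hbegf, the heparin-binding member, at 178, 175 and 188 normalized counts in EV and 226, 264 and 243 in CBL-70Z. Both were higher in all 3 CBL-70Z libraries, by 0.55 ± 0.05 (SE, adjusted p = 4.2e-11) and 0.43 ± 0.08 (SE, adjusted p = 9.5e-05). In the family as a whole, picked out after its values were seen, 5 of 7 tested ligands were called higher and 1 lower, with a median of 0.55. The lower one was Nrg1, a ligand of ERBB3 and ERBB4 (-0.42 ± 0.04, SE, adjusted p = 3.7e-10), and Egf was not called. The call of Nrg4 (0.58), whose libraries overlapped, was lost without EV replicate 1 (0.44), EV replicate 3 (0.50) or CBL-70Z replicate 1 (0.36), and with DESeq2, with no filter and in the fit of all 12 libraries (each 0.58).

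Ligands of other receptor tyrosine kinases moved in both directions. Igf1, insulin-like growth factor 1, was at 82.99, 103 and 98.2 normalized counts in EV and 57.7, 43.6 and 47.5 in CBL-70Z. The lines did not overlap, and Igf1 fell by 0.92 ± 0.15 on the log2 scale (adjusted p = 5.6e-06). Igf2, the fetal growth factor from an imprinted locus, was at 8119, 8166 and 7926 normalized counts in EV and 3889, 3958 and 3815 in CBL-70Z, a change of -1.05 ± 0.02 (SE, adjusted p = 1.4e-27). Its overlapping antisense transcript Igf2os changed by -1.15, and without strand the 2 cannot be told apart. Vegfa, which acts on endothelium, and Hgf, the ligand of MET, also fell (-0.38 and -0.34). Kitl, the ligand of KIT, rose from 2760.1, 2505 and 2652 to 3656, 3881 and 3852 normalized counts (0.53 ± 0.03, SE, adjusted p = 8.9e-16). Over the whole list, 11 of 30 tested members were called higher and 12 lower, with a median log2 fold change of -0.07. That median was -0.03 without EV replicate 3 or without CBL-70Z replicate 3.

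Receptor transcripts were more often lower. In the list of receptor tyrosine kinases, 4 of 30 tested members were called higher and 16 lower, with a median log2 fold change of -0.11. With the length and GC trend removed, 5 were higher and 12 lower, with a median of -0.04. Pdgfrb, the PDGF-B receptor, was at 7554, 7560.1 and 7321 normalized counts in EV and 5539.6, 5455 and 5672 in CBL-70Z. All CBL-70Z libraries were below all EV libraries (-0.43 ± 0.02, SE, adjusted p = 9.4e-17). Epha4, an ephrin receptor, and Ror2, a WNT5A receptor, fell by 0.52 and 0.49. Met, the HGF receptor, was the reverse, at 1716, 1670.2 and 1710.1 normalized counts in EV and 1992, 2089 and 2026 in CBL-70Z, and rose by 0.26 ± 0.03 (SE, adjusted p = 3.5e-08). Egfr was at 911, 945 and 862 normalized counts in EV and 839, 834 and 784 in CBL-70Z. Its 6 libraries did not overlap but lay close together (-0.14 ± 0.04, SE, adjusted p = 0.011), and the call was lost without EV replicate 2 or without CBL-70Z replicate 3, each at -0.11. It was also lost with DESeq2 (-0.15), in the fit of all 12 libraries (-0.14) and with the length and GC trend removed (-0.10). The rise of Mertk, a receptor for apoptotic cells (0.43), was lost without EV replicate 2 (0.42), without CBL-70Z replicate 1 or 3 (both 0.39), with DESeq2 (0.45) and in the fit of all 12 libraries (0.44).

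Transcripts read as ERK output rose together. In this list, 20 of 25 tested members were called higher and 1 lower, with a median log2 fold change of 0.34, beside 15.9% and 16.8% of all tested genes. The PEA3 group of ETS factors was among them. Etv4 was at 455, 448 and 447 normalized counts in EV and 859.9, 813 and 859 in CBL-70Z and Etv5 at 379, 411 and 417 normalized counts in EV and 829, 836 and 810.4 in CBL-70Z. In both genes each CBL-70Z library was above every EV library by a wide margin, with log2 fold changes of 0.90 ± 0.05 (SE, adjusted p = 6.4e-17) and 1.04 ± 0.05 (SE, adjusted p = 8.4e-18). The third PEA3 factor, Etv1, rose by 0.68, so all 3 were called higher. Feedback inhibitors were higher too. Dusp6, a cytoplasmic phosphatase specific for ERK, was at 1063, 1049 and 1122 normalized counts in EV and 1778, 1731 and 1794 in CBL-70Z, without overlap (0.71 ± 0.04, SE, adjusted p = 1.1e-17). The nuclear phosphatases Dusp4 and Dusp5 rose by 0.57 and 0.42, and Dusp9 and Dusp7 by 0.62 and 0.14. Spry2, an inhibitor of receptor signaling to RAS, was at 244, 249.8 and 229.6 normalized counts in EV and 424, 411 and 397 in CBL-70Z. Its lines were separate as well (0.77 ± 0.07, SE, adjusted p = 2.6e-11), and Spry4 rose by 0.60. Spry1 did not share the change, with EV and CBL-70Z libraries intermingled (-0.05 ± 0.08, SE, adjusted p = 0.72).

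Other members of the ERK list also rose. Ccnd1, cyclin D1, which ERK induces in mid-G1, was at 3589, 3841 and 3734 normalized counts in EV and 6851, 6859 and 6857 in CBL-70Z. The CBL-70Z libraries were nearly identical to each other and far above EV (0.88 ± 0.03, SE, adjusted p = 9.8e-25). Phlda1 (0.40), Fosl1, which encodes the AP-1 member FRA1 (0.32), and the cytokine Lif (0.34) rose too. Il1rl1, a receptor for IL-33 induced by serum, was the 1 member called lower (-0.13). The value for Myc was 0.08, and this call was lost without any of EV replicates 1 and 2 and CBL-70Z replicates 1 and 3, at 0.06 to 0.08, and, at 0.08, with DESeq2, with no filter, with a replicate block and in the fit of all 12 libraries. Immediate early genes, which a fresh growth factor stimulus induces, did not rise as a group: 8 of 33 tested members were called higher and 15 lower, with a median log2 fold change of -0.07. Nr4a3 and Nr4a1, orphan nuclear receptors, fell by 0.61 and 0.38, as did Junb by 0.25. Fos was at 101, 109.7 and 89.5 normalized counts in EV and 79.4, 77.4 and 86.6 in CBL-70Z, not called (-0.30 ± 0.13, SE, adjusted p = 0.068) except without EV replicate 3 (-0.37). In the plot of the tested members of 10 gene lists, the ERK list lies almost wholly above 0 and the immediate early list on both sides of it.

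**Figure D1:**
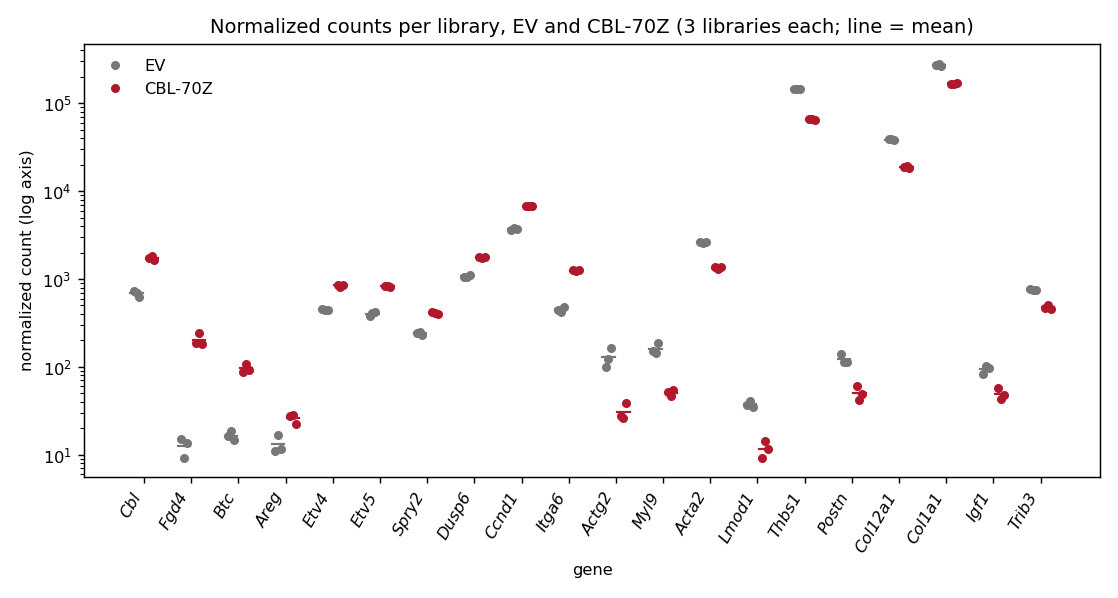
Normalized counts (log axis) of 20 genes in each library, with EV in grey, CBL-70Z in red and short lines for the mean of 3 libraries. In every gene shown the 3 CBL-70Z libraries lie apart from the 3 EV libraries, higher from Cbl to Itga6 and lower from Actg2 to Trib3. The genes were picked for the figure with their values known, so this separation is part of the choice. Over all tested genes, the libraries of the lines did not overlap at 42.5%.

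Cell cycle transcripts rose together by small amounts. Of the 54 tested genes of DNA replication and nucleotide synthesis, 46 were called higher and 0 lower, with a median log2 fold change of 0.22, and of 62 genes of mitosis and the spindle 50 were higher and 0 lower, with a median of 0.13. In neither list was a member lower at an unadjusted p below 0.05, and edgeR and DESeq2 also called 0 lower. All 7 tested MCM genes rose, by 0.15 to 0.28. They encode the subunits of the replicative helicase and its partner protein Mcm10. Mcm3 was at 3876, 3807 and 3777 normalized counts in EV and 4625, 4559.8 and 4770.5 in CBL-70Z and Mcm5 at 3882, 4076 and 3928 normalized counts in EV and 4725, 4786 and 4729 in CBL-70Z. In both the lowest CBL-70Z library lay above the highest EV library (0.28 ± 0.03, SE, adjusted p = 3.8e-11, and 0.26 ± 0.03, SE, adjusted p = 2.4e-10). Larger changes were those of E2f2, an activator of S phase genes (0.58 ± 0.10, SE, adjusted p = 3.0e-05), Uhrf1, which keeps DNA methylation through replication (0.43 ± 0.03, SE, adjusted p = 1.3e-13), and Cdc6, which loads the helicase (0.38 ± 0.06, SE, adjusted p = 1.7e-06). Pcna, the sliding clamp, rose by 0.27 and Ccne2, cyclin E2, by 0.34.

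Mitotic genes showed smaller changes. Aurkb, an Aurora kinase of the chromosomal passenger complex, was at 1776, 1738 and 1806 normalized counts in EV and 2096, 1957 and 2072 in CBL-70Z (0.20 ± 0.03, SE, adjusted p = 6.6e-06), and the proliferation marker Mki67 at 10364, 10297 and 10228 normalized counts in EV and 11131, 11398 and 11153 in CBL-70Z (0.12 ± 0.02, SE, adjusted p = 9.3e-06). Neither gene had overlapping libraries. Anln, an actin-binding protein of the cleavage furrow, rose by 0.28. Top2a, which untangles replicated chromosomes, was at 22287, 22334 and 22672 normalized counts in EV and 22805, 23318 and 22391 in CBL-70Z, with the lines intermingled and no call (0.03 ± 0.02, SE, adjusted p = 0.34), although it was called with the length and GC trend removed (0.05). Among regulators of the G1 phase, Cdkn1b, the inhibitor p27, fell by 0.20 and Ccnd2, cyclin D2, by 0.26, while Cdkn1a, the inhibitor p21, rose by 0.15. Genes of the p53 response were divided, with 7 of 28 higher and 6 lower.

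**Figure D2:**
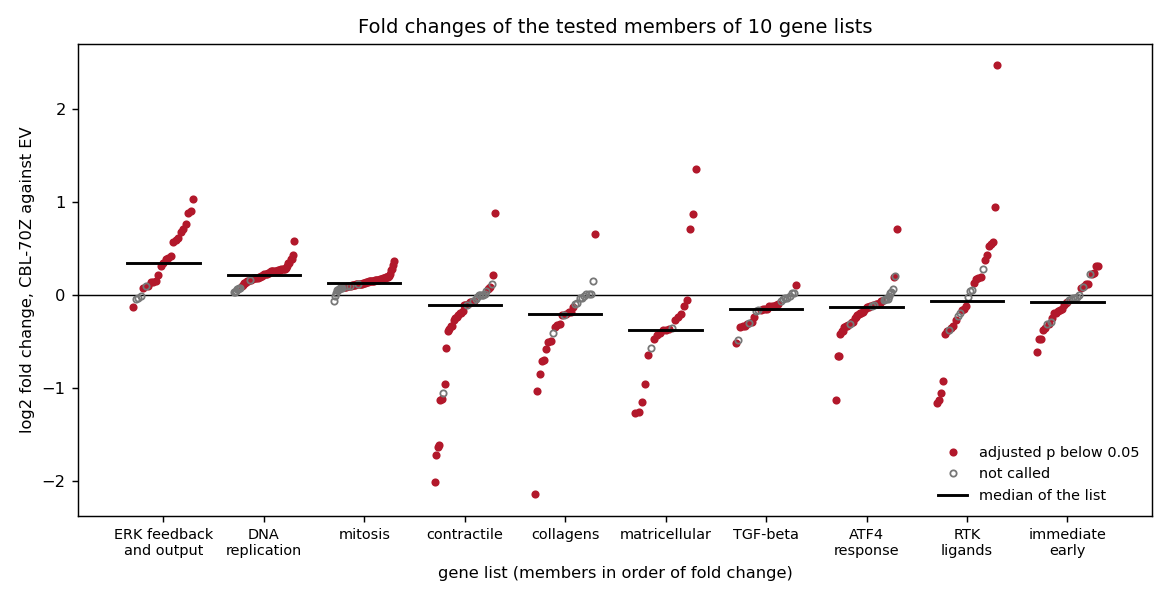
Log2 fold change of CBL-70Z against EV (y axis) for each tested member of 10 gene lists, ordered by fold change within a list, with filled points for members at an adjusted p below 0.05 and bars for the list medians. The DNA replication and mitosis lists lie in a narrow band that is nearly all above 0, and the contractile, collagen and matricellular lists reach down to -2.01, -2.15 and -1.27.

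Smooth-muscle actin and contractile transcripts were mostly lower. Of 42 members tested, 25 were called lower and 5 higher, with a median of -0.11, and 6 fell by 2-fold or more. Actg2, the smooth-muscle gamma actin, was at 100.2, 122 and 164 normalized counts in EV and 27.8, 26.2 and 39.1 in CBL-70Z (chromosome 6, 83512905 to 83536265 of GRCm38). The highest CBL-70Z library was below the lowest EV library, and the change was -2.01 ± 0.17 (SE, adjusted p = 1.2e-11). Myl9, the regulatory light chain of smooth-muscle myosin, was at 152, 143 and 187 normalized counts in EV and 51.5, 46.9 and 53.9 in CBL-70Z, a change of -1.63 ± 0.13 (SE, adjusted p = 1.9e-12). Lmod1, which nucleates actin filaments in smooth muscle, was at 36.4, 41.4 and 35.02 normalized counts in EV and 9.28, 14.2 and 11.6 in CBL-70Z (-1.62 ± 0.25, SE, adjusted p = 2.6e-06). Acta2, the smooth-muscle alpha actin that marks myofibroblasts, was at 2624, 2598 and 2636 normalized counts in EV and 1367, 1291 and 1372 in CBL-70Z. Replicates were close and the lines far apart (-0.96 ± 0.03, SE, adjusted p = 8.0e-23). Tagln, the actin-bundling protein SM22, fell by 1.14.

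The fall was not shared by the whole actin cytoskeleton. Tropomyosin 1, Tpm1, and caldesmon, Cald1, fell by 0.37 and 0.33, and Cnn2, a calponin, and Vcl, the focal adhesion protein vinculin, by 0.39 and 0.27. Cytoplasmic gamma actin, Actg1, was at 5139, 5206 and 4709 normalized counts in EV and 5041, 4746 and 5268 in CBL-70Z. Its libraries were intermingled (0.00 ± 0.03, SE, adjusted p = 0.998). Srf was not called either (-0.00 ± 0.04, SE, adjusted p = 0.985), and Actb, the cytoplasmic beta actin, was called higher by 0.09. Csrp2, a LIM protein of smooth muscle, went against the list, at 1042, 1081 and 1152 normalized counts in EV and 1958, 1996 and 2064 in CBL-70Z, a rise of 0.88 ± 0.04 (SE, adjusted p = 6.8e-20). Tmsb4x, which sequesters actin monomers and stood outside the list, rose by 1.34 ± 0.04 (SE, adjusted p = 1.3e-25). In bulk RNA, fewer cells that express a contractile gene and less of its RNA per cell cannot be told apart.

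Because SRF acts through the CArG box, the promoters of the contractile list were searched for this element on both strands, from 250 bases before to 50 bases after each annotated start (RefSeq, GRCm38.p6). A promoter was found for 36 of the 42 members, and 8 held a box (22.2%). Over all 27025 genes with a promoter in the table the share was 1.81%, and over the 9699 tested ones 1.59%. The list was made of actin and contractile genes, the kind that SRF drives. This excess therefore follows from the choice of the list and is no result of the comparison. Within the list the share was 22.7% of the 22 members called lower (5 genes), 27.3% of the 11 not called (3 genes) and 0 of the 3 called higher. Most members called lower had no box in the window. Acta2, Lmod1, Tpm1 and Cald1 were among these, and Actg2 and Tagln had no promoter in the table. Only promoters that hold a box are printed. Promoters of 3 members that fell and of Actg1, which was not called, are shown so that both outcomes are seen, 5′ to 3′ with the CArG box in capitals. They are Myl9 (chr2:156775214-156775513, plus strand), Cnn2 (chr10:79988350-79988649, plus strand), Vcl (chr14:20929148-20929447, plus strand) and Actg1 (chr11:120348446-120348745, minus strand).
Myl9: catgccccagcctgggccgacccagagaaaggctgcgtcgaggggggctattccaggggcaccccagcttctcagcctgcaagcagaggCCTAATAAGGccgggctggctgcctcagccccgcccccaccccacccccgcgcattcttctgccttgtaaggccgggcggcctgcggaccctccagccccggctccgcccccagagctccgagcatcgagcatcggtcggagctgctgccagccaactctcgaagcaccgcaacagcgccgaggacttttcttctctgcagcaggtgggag
Cnn2: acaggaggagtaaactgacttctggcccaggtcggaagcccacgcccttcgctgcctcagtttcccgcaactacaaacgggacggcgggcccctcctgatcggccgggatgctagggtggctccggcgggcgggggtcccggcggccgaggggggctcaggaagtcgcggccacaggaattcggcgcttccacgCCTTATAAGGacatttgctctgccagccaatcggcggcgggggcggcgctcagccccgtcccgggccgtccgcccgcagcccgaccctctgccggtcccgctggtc
Vcl: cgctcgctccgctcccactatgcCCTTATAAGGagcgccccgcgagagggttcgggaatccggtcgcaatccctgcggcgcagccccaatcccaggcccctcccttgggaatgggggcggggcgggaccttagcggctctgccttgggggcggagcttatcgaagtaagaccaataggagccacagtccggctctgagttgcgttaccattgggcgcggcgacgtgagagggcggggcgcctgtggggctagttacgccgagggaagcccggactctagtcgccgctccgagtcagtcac
Actg1: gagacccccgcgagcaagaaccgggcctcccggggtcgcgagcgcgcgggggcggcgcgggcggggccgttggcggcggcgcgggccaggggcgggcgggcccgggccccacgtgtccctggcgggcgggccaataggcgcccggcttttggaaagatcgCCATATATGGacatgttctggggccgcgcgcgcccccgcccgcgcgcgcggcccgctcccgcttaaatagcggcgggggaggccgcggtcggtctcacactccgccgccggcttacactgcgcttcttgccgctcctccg
The box starts at -161 in Myl9, at -56 in Cnn2, at -227 in Vcl and at -90 in Actg1, counted from the start. A match of letters does not show that SRF binds there.

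Matrix genes were lower across several classes. Among collagens, 1 of 28 tested members were called higher and 16 lower, with a median log2 fold change of -0.21. All 6 chains of the fibrillar types I, III and V, a subset picked from the list, were called lower, with a median of -0.55. Other fibrillar types were not counted in it. The 6 included Col1a1 and Col1a2, the chains of type I collagen. Col1a1 was at 274100, 282750 and 264440 normalized counts in EV and 167230, 167320 and 171880 in CBL-70Z, and Col1a2 at 278850, 285430 and 273990 normalized counts in EV and 195050, 202210 and 198900 in CBL-70Z. No CBL-70Z library reached an EV library (-0.70 ± 0.02, SE, adjusted p = 3.4e-25, and -0.49 ± 0.02, SE, adjusted p = 6.8e-22). Col12a1, which coats type I fibrils, was at 38804, 39104 and 37931 normalized counts in EV and 18852, 19238 and 18421 in CBL-70Z and changed by -1.04 ± 0.02 (SE, adjusted p = 7.9e-30). The microfibril-forming collagen VI was mostly unlike them, with 1 of 3 chains lower and Col6a1 not called (-0.04). Col23a1, a transmembrane collagen at 0, 5.45 and 0 normalized counts in CBL-70Z, had the lowest value of the list (-2.15), but its libraries overlapped and the call was lost without CBL-70Z replicate 1 or 3, each at -1.70, and in the fit of all 12 libraries (-2.14). Collagen-processing enzymes gave 14 of 20 members lower and 3 higher. Adamts2, which trims procollagen, was among the lower ones at -0.50, and so was Loxl1, a lysyl oxidase, at -0.36.

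Matricellular genes, whose products modulate cell contact with the matrix, were mostly lower, with 16 of 21 tested genes called lower and 3 higher and a median of -0.38. Thbs1, thrombospondin 1, was at 146580, 147340 and 145840 normalized counts in EV and 65602, 66553 and 65437 in CBL-70Z (chromosome 2, 118111876 to 118127133 of GRCm38). Replicates of a line lay close together and the lines were far apart (-1.15 ± 0.02, SE, adjusted p = 2.4e-33). Thbs2 and Thbs3 fell by 0.43 and 0.21. Postn, periostin, was at 139, 112 and 115 normalized counts in EV and 60.8, 41.4 and 48.6 in CBL-70Z, a fall to well below every EV library (-1.27 ± 0.14, SE, adjusted p = 8.4e-09). Wisp2, a connective tissue growth factor relative, fell by 0.96 and Tnn, tenascin N, by 1.27. The members that rose were Spp1, osteopontin, at 33951, 34242 and 35161 normalized counts in EV and 55194, 57901 and 55768 in CBL-70Z (0.71 ± 0.02, SE, adjusted p = 3.4e-25), Sparcl1, a SPARC relative, at 225, 249.8 and 311 normalized counts in EV and 662, 685 and 656 in CBL-70Z (1.36 ± 0.07, SE, adjusted p = 1.2e-16), and Wisp3, which was low in both lines. Wisp3 changed by 0.87 ± 0.34 (SE, adjusted p = 0.045), and this call was lost without any 1 of EV replicates 1, 2 and 3 or CBL-70Z replicates 2 and 3, at 0.74 to 0.92, and with no filter, with a replicate block and in the fit of all 12 libraries (each 0.87) and with the length and GC trend removed (0.85). Sparc itself fell by 0.38.

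Among elastic fibre, basement membrane and proteoglycan genes, 28 of 46 were called lower and 6 higher, with a median of -0.19. The median was -0.12 with the length and GC trend removed. Fmod, the collagen-binding proteoglycan fibromodulin, was at 39.5, 45.6 and 29.2 normalized counts in EV and 14.4, 11.99 and 14.8 in CBL-70Z (-1.39 ± 0.24, SE, adjusted p = 2.1e-05), and Fbn1, fibrillin 1, fell by 0.43. Proteases and their inhibitors were lower at 23 of 40 members and higher at 3, with a median of -0.25, which was -0.16 without EV replicate 3. Adam12, a membrane metalloprotease, was at 1058, 1118 and 1056 normalized counts in EV and 621, 579.9 and 585 in CBL-70Z (-0.85 ± 0.04, SE, adjusted p = 3.1e-17), and the gelatinase Mmp2 and its activator Mmp14 fell by 0.33 and 0.43. Other genes of this list went up. Mmp9, the second gelatinase, was at 770.2, 745 and 706 normalized counts in EV and 1045, 991 and 1057 in CBL-70Z (0.48 ± 0.04, SE, adjusted p = 7.3e-11), and Plaur, the urokinase receptor, rose by 0.39 while Plau, urokinase, fell by 0.37. These lists share their sign with the fibroblast markers, whose summed level was 1115255.5 to 1155637.3 normalized counts in EV and 910169.1 to 923610.5 in CBL-70Z, with 10 of 14 tested markers lower and 2 higher. Most of that sum is Col1a1, Col1a2 and Fn1, which the matrix lists also hold, and its part in the result was not tested.

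TGF-beta pathway transcripts were mostly lower as well. Of 28 TGF-beta and activin genes 16 were called lower and 1 higher, with a median of -0.15. Skil, a SMAD corepressor, and Pmepa1, which dampens SMAD signaling, fell by 0.35 and 0.34, while the ligand Tgfb1 was not called (-0.04). BMP and ID genes gave 15 of 22 lower and 2 higher. Id3 and Id4, inhibitors of bHLH factors, fell by 0.18 and 0.47. Id1 was at 945, 898 and 938 normalized counts in EV and 932, 900.4 and 957 in CBL-70Z, with no call (0.00). Rgmb, a BMP co-receptor, rose from 701, 635 and 682 to 1336, 1273 and 1333 normalized counts (0.97 ± 0.04, SE, adjusted p = 3.5e-19). Targets and components of YAP and TEAD signaling were lower at 18 of 33 members and higher at 4. Amotl2, a YAP-induced angiomotin, was at 8304, 8374 and 8286 normalized counts in EV and 5774, 5481 and 5760.5 in CBL-70Z (-0.55 ± 0.02, SE, adjusted p = 7.5e-20), and Cyr61 fell by 0.48. The related target Ctgf was nearer to 0 (-0.12), and its call was lost without EV replicate 2 (-0.10) or CBL-70Z replicate 2 (-0.09) and with DESeq2 (-0.12).

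Genes induced by ATF4, the transcription factor of amino acid shortage, were lower at 33 of 47 members and higher at 2, with a median of -0.13. Trib3, a pseudokinase that restrains ATF4, was at 760.1, 749 and 756 normalized counts in EV and 467, 510.2 and 458 in CBL-70Z. No library of one line reached the other (-0.66 ± 0.05, SE, adjusted p = 1.2e-12). Chac1, a glutathione-degrading enzyme, was at 915, 874 and 906 normalized counts in EV and 568, 573 and 559 in CBL-70Z (-0.66 ± 0.05, SE, adjusted p = 4.0e-14). Ddit3, the stress factor CHOP, fell by 0.39, and Atf4 itself by 0.13. Biosynthetic targets moved less. Asns, asparagine synthetase, fell by 0.11, and Psat1, of serine synthesis, was not called (-0.04). Chaperones and sensors of the endoplasmic reticulum gave 14 of 25 members lower and 0 higher, with 0 higher at an unadjusted p below 0.05 by limma and 0 called higher by edgeR or DESeq2. Herpud1, which serves protein disposal there, fell by 0.28 and the sensor Atf6 by 0.25.

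**Figure D3:**
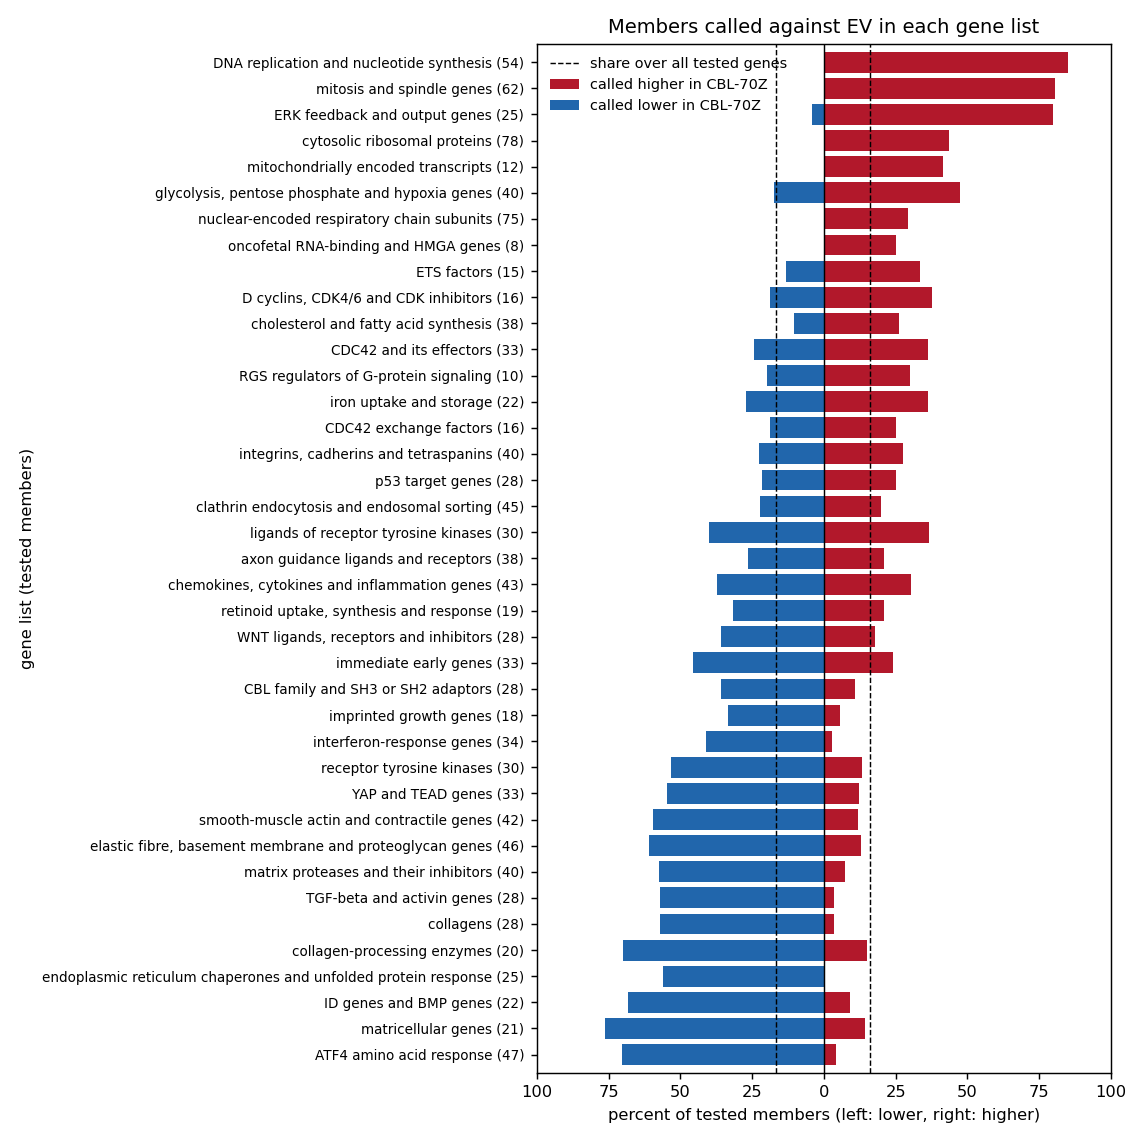
Percent of the tested members of each of 39 gene lists that were called lower (blue, left) or higher (red, right) in CBL-70Z, with the number tested in parentheses and dashed lines at the shares over all tested genes (16.8% and 15.9%). The dashed shares are not matched to the lists for abundance. DNA replication, mitosis and ERK output genes have the longest bars to the right, and matricellular, ATF4 and collagen-processing genes the longest to the left.

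Large rises were also found outside these pathways. Agtr2, the type 2 angiotensin receptor, had 0, 0 and 3 reads in EV and 81, 62 and 83 in CBL-70Z. This is a ratio of 85.09, with a 95% interval of 28.75 to 415.7 that covers counting error only. Upp1, uridine phosphorylase, was at 24.3, 30.4 and 37.9 normalized counts in EV and 161, 178 and 167 in CBL-70Z (2.43 ± 0.15, SE, adjusted p = 2.1e-15). Its lines were far apart, as were those of Cd200, an inhibitory ligand of myeloid cells, at 52.6, 45.6 and 42.8 normalized counts in EV and 125, 156 and 138 in CBL-70Z (1.55 ± 0.13, SE, adjusted p = 1.8e-11). Itga6, the laminin-binding integrin alpha 6, rose by 1.47, and Alcam, an adhesion molecule, was at 211, 176 and 224 normalized counts in EV and 491, 488 and 499.8 in CBL-70Z (1.28 ± 0.07, SE, adjusted p = 6.6e-16). Cd44, the hyaluronan receptor, rose by 0.46. Sox9, a chondrocyte and progenitor factor, was at 2509, 2556 and 2570.1 normalized counts in EV and 3918, 3638 and 3735 in CBL-70Z, again with no overlap (0.56 ± 0.03, SE, adjusted p = 1.4e-17). Ank, a transporter that exports pyrophosphate, rose by 0.63, and Ptges, a prostaglandin E synthase, by 0.54.

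Large falls were also found in other genes. Klhl30, a muscle-enriched kelch gene, was at 135, 139 and 134 normalized counts in EV and 43.3, 49.1 and 52.8 in CBL-70Z (-1.48 ± 0.13, SE, adjusted p = 2.6e-11). Cacna1g, a low-voltage calcium channel, was at 2506, 2609.5 and 2548 normalized counts in EV and 1175, 1178 and 1306 in CBL-70Z. Its lines were separate by a wide margin (-1.07 ± 0.04, SE, adjusted p = 1.2e-22). Rnf43, a ligase that removes frizzled receptors, was at 292, 309 and 298 normalized counts in EV and 135, 145 and 157 in CBL-70Z (-1.04 ± 0.08, SE, adjusted p = 3.3e-12), and P2ry14, a receptor for UDP-sugars, fell by 0.97. Ptx3, a secreted pentraxin of innate immunity, was at 8596, 8483 and 8814 normalized counts in EV and 4841, 4840 and 4969 in CBL-70Z (-0.82 ± 0.02, SE, adjusted p = 6.5e-25). Cemip, which degrades hyaluronan, and Smoc2, a calcium-binding matrix protein, fell by 0.61 and 0.64. Myo7a, an unconventional myosin, fell by 1.09.

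To see which changes were particular to CBL-70Z, each named gene was compared with the other CBL lines on a common scale of all 12 libraries. There 35.2% of 15266 genes were called between CBL-70Z and WT-CBL and 50.4% between CBL-70Z and CBL-Y371S, and the 3 comparisons with EV share its libraries. Of the 187 genes named by rule, 42 differed in CBL-70Z from both other CBL lines in one direction, near the share of 22.9% over all 15266 genes. The genes given below as highest or lowest in CBL-70Z (Kitl, C3, Cp, Fmnl2, Cyr61, Fgd3 and Aldh1a1) were picked out for this pattern. Their values are a description, and their adjusted p-values against the other CBL lines add no support. Kitl, among the 42, had log2 fold changes against EV of -0.32 for the WT-CBL line, 0.53 for CBL-70Z and 0.01 for the CBL-Y371S line. CBL-70Z exceeded WT-CBL by 0.85 and CBL-Y371S by 0.52. C3, the central complement component, stood at -0.19, 0.84 and 0.39 in the same order, with CBL-70Z above WT-CBL by 1.02 and above CBL-Y371S by 0.45 (adjusted p = 3.2e-06). Cp, the ferroxidase ceruloplasmin, was at -0.51, 0.46 and -0.05, and Fmnl2 at -0.23, 0.36 and -0.08. In both, CBL-70Z was the line that rose.

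Among genes lowest in CBL-70Z, Cyr61 was at 0.14, -0.47 and -0.04, and CBL-70Z was below CBL-Y371S by -0.44 ± 0.03 (SE, adjusted p = 2.9e-09), given as a signed difference. Fgd3 was at 0.06, -0.63 and -0.17, and Aldh1a1, a retinal dehydrogenase, at 0.65, -0.76 and -0.38. Other genes were ordered differently. Igf2 was at -1.12, -1.05 and -2.11, where WT-CBL and CBL-70Z did not differ beyond their spread (0.07 ± 0.03, SE, adjusted p = 0.15) and CBL-Y371S was lower. CBL-70Z lay between the other CBL lines in the next genes. Thbs1 was at -0.47, -1.15 and -1.74, and Etv4 at -0.02, 0.91 and 1.30, the change in CBL-70Z being smaller than in CBL-Y371S by -0.39 ± 0.05 (SE, adjusted p = 1.1e-06), again signed. Btc did not pass the test between the mutants (0.28 ± 0.24, SE, adjusted p = 0.35), nor did Etv5 (-0.04 ± 0.05, SE, adjusted p = 0.49), Dusp6 (0.04 ± 0.04, SE, adjusted p = 0.46) or Acta2 (-0.06 ± 0.03, SE, adjusted p = 0.15), which is not evidence that they are equal. In the plot of each CBL line against EV, the red circles of CBL-70Z stand above both other lines from Fgd4 to C3 and below both from Cyr61 to Aldh1a1.

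**Figure D4:**
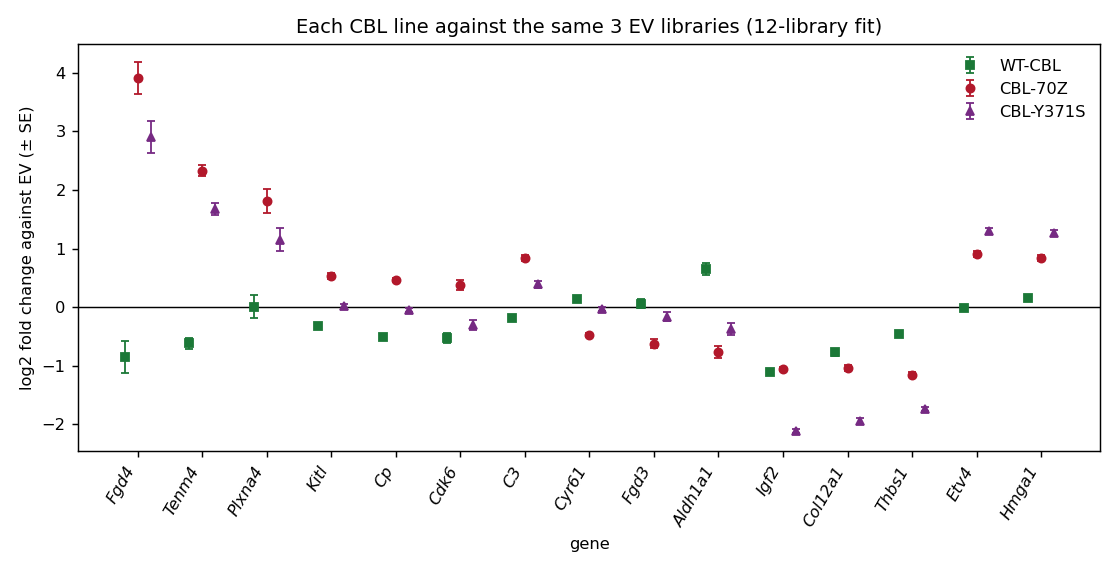
Log2 fold change against the same 3 EV libraries (points, with bars of ± 1 SE) of 15 genes in WT-CBL (squares), CBL-70Z (circles) and CBL-Y371S (triangles), from the fit of all 12 libraries. The genes were picked for the figure with their values known. CBL-70Z is highest from Fgd4 to C3 and lowest from Cyr61 to Aldh1a1, and from Col12a1 to Hmga1 it lies between WT-CBL and CBL-Y371S.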

How the data were processed

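RNA from 4 NIH-3T3 lines, 3 libraries each, was sequenced after unstranded TruSeq RNA v2 preparation. Per the submitters' processing notes the tools were FastQC 0.10.1, TopHat2 2.0.13, Bowtie2 2.2.4.0, HTSeq 0.9.1 and DESeq2, with GRCm38. The annotation release and the strand setting of the counting are not given in the sources used here. The authors deposited a table for each line against EV, whose signal values are counts per gene divided by library size factors and not rounded to reads. The tables also hold the authors' own means, fold changes and p-values, which were not used. Library columns were matched to samples by name, and 0 columns belonged to no sample.

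Values were analysed as log2(normalized count + 1) with limma 3.58.1 in R 4.3.3 (lmFit, eBayes with trend, two-sided), with Benjamini-Hochberg adjustment over the 15000 genes that averaged 10 or more in either line, called at an adjusted p below 0.05. The SE is the moderated one. Comparisons with the other CBL lines used all 12 libraries on one median-of-ratios scale (15266 genes). Whole reads were recovered for 100% of values within a tolerance of 1e-06, and edgeR 4.0.16 and DESeq2 1.42.0 were run on them as alternatives. Beside the 4907 genes of the main test, edgeR called 4912, DESeq2 3444 and the limma fit of all 12 libraries 3705. edgeR with RLE scaling was chosen after seeing the data. On simulated counts of 14832 genes modelled on this comparison, limma called 68% of genes changed 1.25-fold, 86% at 1.5-fold, 88% at 2-fold and 100% at 4-fold. The simulation changed 50 genes at each fold, far fewer than were called in the data, and 10 unchanged genes were called. Its shares therefore do not measure the sensitivity of the comparison itself.

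The comparison, the members and the 39 gene lists were chosen with earlier results of these data known. The 187 genes named by rule were Cbl, Cblb, Sh3kbp1, Fgd4, Egr1, Erf and Cdc42, the largest changes with libraries that did not overlap (15 in each direction at a CPM of at least 5, and 10 in each direction at a mean of at least 3000), genes near 0 in one line, and up to 4 called members of each list. Of these, the 10 that most set CBL-70Z apart from both other CBL lines were marked, which added no gene. Other genes in the text were chosen after their values were seen. The labels do not say whether replicate numbers pair the libraries, and the main test did not pair them. Alternatives covered scaling, pseudocount, filter, the length and GC trend, the replicate block, all 12 libraries in one fit, and leaving out each library. Promoter sequences are from RefSeq (GRCm38.p6), gene positions and overlaps from GENCODE M21 (GRCm38). Intervals and floors cover counting error only.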

Additional observations from a re-analysis of the deposited data

Results flagged for a closer look

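In 7 named genes the change against EV went in opposite directions in CBL-70Z and CBL-Y371S. Each change was called, and the difference between the mutants was itself called in the limma fit of all 12 libraries. The 7 came from the 187 genes named by rule and the text genes chosen after their values were seen. The share of all genes that meet these conditions was not computed, while 50.4% of 15266 genes were called between the mutants. The adjusted p-values given here were part of the selection and add no support. Both changes are measured against the same 3 EV libraries.

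Cblb, the closest relative of CBL, changed by 0.16 in CBL-70Z and -0.19 in CBL-Y371S, a log2 difference of 0.35 ± 0.04 (SE, adjusted p = 1.2e-06), with WT-CBL at -0.42. Cdk6, a G1 kinase, changed by 0.37 in CBL-70Z and -0.31 in CBL-Y371S, a log2 difference of 0.68 ± 0.09 (SE, adjusted p = 2.0e-06), with WT-CBL at -0.52. Ctgf, a YAP and TGF-beta target, changed by -0.11 in CBL-70Z and 0.25 in CBL-Y371S, a log2 difference of -0.36 ± 0.04 (SE, adjusted p = 2.2e-07), with WT-CBL at 0.48. Elovl6, a fatty acid elongase, changed by 0.16 in CBL-70Z and -0.17 in CBL-Y371S, a log2 difference of 0.33 ± 0.04 (SE, adjusted p = 8.0e-07), with WT-CBL at -0.17. Id3, a bHLH inhibitor, changed by -0.18 in CBL-70Z and 0.36 in CBL-Y371S, a log2 difference of -0.54 ± 0.04 (SE, adjusted p = 2.2e-09), with WT-CBL at 0.76. Met, the HGF receptor, changed by 0.26 in CBL-70Z and -0.17 in CBL-Y371S, a log2 difference of 0.44 ± 0.04 (SE, adjusted p = 4.0e-08), with WT-CBL at -0.26. Mki67, the proliferation marker, changed by 0.13 in CBL-70Z and -0.18 in CBL-Y371S, a log2 difference of 0.30 ± 0.04 (SE, adjusted p = 7.8e-06), with WT-CBL at -0.33. Cdk6, Ctgf and Elovl6 overlap a gene on the opposite strand. Groups of 3 libraries are too small to be tested for a library that stands apart.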

How the results depend on the processing

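No gene that was named in the text and called in the main test changed sign under any alternative that gave a value. Genes that were not called could change sign, as Spry1 did (-0.05, and 0.01 without CBL-70Z replicate 2). Of the 187 genes named by rule 186 were called, and 165 were called in every alternative that gave a value. The count of genes called at 2-fold or more, 142, was 76 with DESeq2, 92 with a pseudocount of 5, 265 with no filter and 54 at a mean of at least 50. The share of calls that were higher, 48.6%, was 56.0% with the length and GC trend removed. The direction with more calls therefore changed, with 2643 higher and 2073 lower in that fit. Leaving out 1 library gave 4124 to 4541 calls, with 2000 to 2153 higher, 2122 to 2388 lower and 128 to 158 at 2-fold or more. Without 1 library, 15 of the genes named by rule lost their call. Of the other genes in the text, Ctgf, Egfr, Myc, Nrg4 and Wisp3 lost theirs too. Deviations of same-numbered libraries correlated at -0.007, -0.041 and -0.045. These values gave no sign of a pairing, but 3 libraries in a line cannot exclude one. A replicate block gave 4595 calls, 2215 higher and 2380 lower. With DESeq2, 3444 genes were called, 1605 higher and 1839 lower. There 13 of the 78 counts of list members called moved by more than 1.5-fold or to 0. The cause was not tested. Leaving out WT-CBL replicate 3 moved 17 of 374 contrasts with the other CBL lines across the threshold. The median SE was 0.05 with 3 libraries in a line. In a simulation with far fewer changed genes than the calls here, 68% of 1.25-fold changes were called, so changes of this size can go uncalled.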

Other observations

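Over all tested genes 16.8% were called lower and 15.9% higher, and the counts in this section are to be read against these shares. Interferon-response genes were lower at 14 of 34 tested members and higher at 1, with a median log2 fold change of -0.11. Usp18, which removes the ubiquitin-like protein ISG15, changed by -0.60 and Isg15 by -0.52. Cytokine and inflammation genes were divided, with 13 of 43 higher and 16 lower. Icam1, a leukocyte adhesion receptor, changed by 1.61 and the chemokine Ccl5 by 1.56, and Ccr7, a chemokine receptor, by -0.84.

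Glycolysis, pentose phosphate and hypoxia genes were higher at 19 of 40 members and lower at 7, with a median of 0.07. Ndrg1 was the highest called member at 0.41, and Pfkfb3, which makes an activator of glycolysis, the lowest at -0.76. Ribosomal protein genes were higher at 34 of 78 members and respiratory chain subunits at 22 of 75, with medians of 0.08 and 0.07. In both, 0 were lower at an unadjusted p below 0.05 by limma. The share called in either direction was 43.6% and 29.3%, beside 32.7% of all tested genes, so the respiratory chain share was not above it. The counts of 34 and 22 were 9 and 13 in the fit of all 12 libraries. Frizzled receptors, picked out after their values were seen, were lower at 5 of 8 and higher at 0, with a median of -0.23. Among regulators of G-protein signaling, Rgs16 changed by 1.13, Rgs2 by 0.55 and Rgs4 by -0.39. Usp18, Icam1, Ndrg1 and Rgs16 overlap a gene on the opposite strand.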
